A study of Mus musculus with 6 samples.

Results

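The C/EBP transcription factors were examined through 4 genes, Cebpa, Cebpb, Cebpd and Cebpg, taken by symbol from a deposited table of 57180 gene rows. They encode C/EBP alpha, beta, delta and gamma, and 3 of the 4 had enough counts to be tested among 14605 tested genes. The libraries came from GC-1 spg, an immortalised mouse cell line made from spermatogonia with SV40 large T antigen, and each group held 3 libraries. Cells of one group were transfected to overexpress the long non-coding RNA SNHG1 (Ov_SNHG1). Cells of the other received the vector (Vector). Both groups were collected 24 hours after transfection for a study whose title places SNHG1 in IL-17A signalling, and all 6 libraries carry the same treatment entry, Non-obstructive azoospermia. The sources used here do not give what was done under that entry, the construct, or whether replicates are separate cultures, so each p-value reflects variation among libraries that may be only technical.

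C/EBP proteins are basic leucine zipper factors that bind DNA as dimers, with themselves, with each other or with relatives such as ATF4. C/EBP beta and delta are known as acute-phase and cytokine-responsive factors, which act beside NF-kappaB on inflammatory promoters, among them those that IL-17 activates. C/EBP alpha drives adipocyte and granulocyte differentiation, and C/EBP gamma, which lacks a strong activation domain, works largely through its partners. In rodent testis, C/EBP beta is known from Leydig cells.

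Total counts were 15521900 to 21095427 per library. Snhg1, the check of the labels, was at 25.2 ± 1.19 CPM (counts scaled to a common library total) in the libraries labelled Ov_SNHG1 and 23.0 ± 2.63 CPM in Vector libraries (SD, n = 3 each), and the groups overlapped (log2 fold change 0.14 ± 0.10 SE, edgeR adjusted p = 0.52). Directions below are therefore those of the labels. Of 14 germ cell markers, 7 had no count in any library, among them Ddx4, Kit, Sohlh1 and Zbtb16. The germ cell markers summed to 2.54 to 3.69 CPM in libraries labelled Ov_SNHG1 and 2.32 to 2.86 CPM in Vector libraries. Gfra1, the only one with a mean of 1 CPM or more, held most of each sum. It averaged 2.42 CPM in labelled libraries and 1.92 CPM in Vector libraries. The 10 fibroblast and peritubular markers summed to 18311 to 19170 CPM in labelled libraries and 21789 to 23185 CPM in Vector libraries. Most of each sum was collagen, with Col1a2 at a mean of 13159 and 16154 CPM and Col1a1 at 4505 and 5159 CPM. Thy1 and Lum had no count in any library, and Dcn averaged 0.199 and 0.148 CPM. Of the 10 markers, Col1a2 and Col3a1 were called lower and Pdgfra higher, and the part of such a difference in the results was not tested.

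Cebpd, the gene of C/EBP delta, rose about 4-fold, Cebpb was higher in each library labelled Ov_SNHG1 without passing the test, Cebpg overlapped between the groups and Cebpa was close to undetected. At an adjusted p under 0.05, edgeR called 2.4% of all tested genes in either direction. Of the 3 tested members 1 was called higher, where 1.54% of all tested genes were. No member was called lower, as 0.856% of tested genes were. The groups did not overlap for 2 of the 3, Cebpd and Cebpb, as for 23.7% of all tested genes.

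**Figure D1:**
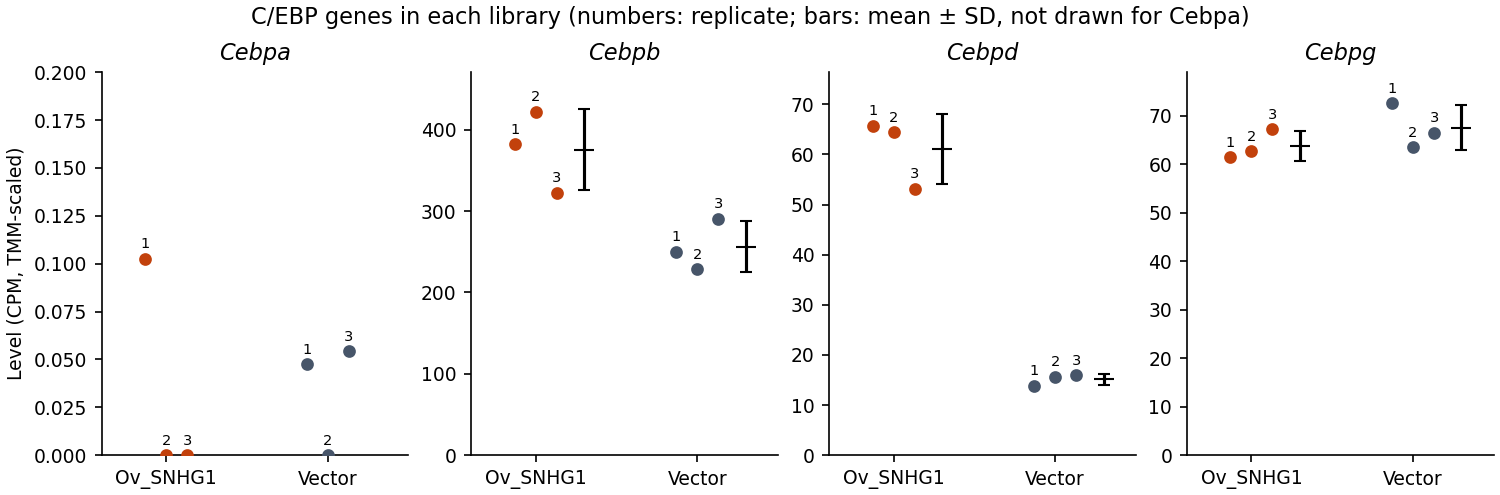
Level of each C/EBP gene in CPM (vertical axes from 0, each with its own range) in the 3 libraries labelled Ov_SNHG1 and the 3 Vector libraries; each point is a library with its replicate number, and bars give the mean ± SD, which is not drawn for Cebpa because 3 of its libraries are at 0. Cebpd lies at 53.1 to 65.7 CPM against 13.9 to 15.9 CPM, Cebpb at 322 to 422 CPM against 228 to 291 CPM, and the groups of Cebpg overlap.

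Cebpd (ENSMUSG00000071637) lies on chromosome 16 at 15705150 to 15708895, as the deposited table gives it with no build named. It had 1281, 1358 and 1025 counts in the libraries labelled Ov_SNHG1 and 292, 243 and 294 counts in Vector libraries. These were 65.7, 64.4 and 53.1 CPM, against 13.9, 15.7 and 15.9 CPM. The lowest labelled library, replicate 3, was still above every Vector library by more than the range within either group. The log2 fold change was 2.01 ± 0.11 (SE), a 4.03-fold increase with a 95% interval of 3.41 to 4.77 (edgeR, adjusted p = 4.33e-05). Only 0.164% of tested genes had a larger log2 fold change, and Cebpd ranked 25 of 14605. By mean CPM among tested genes it ranked 4050 in the labelled libraries and 9019 in Vector libraries.

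On the deposited coordinates, Cebpd shares 1808 bases with Spidr, a DNA repair scaffold gene that GENCODE M21 places on the opposite strand. The libraries were stranded per the labels' protocols, but the sources used here do not give the strand setting of the counting, so reads of the shared stretch cannot be told apart. Spidr had 808, 878 and 854 counts in labelled libraries and 774, 609 and 653 counts in Vector libraries (log2 0.19 ± 0.07 SE, edgeR adjusted p = 0.211). For each Spidr count there were 1.59, 1.55 and 1.20 counts of Cebpd in labelled libraries, against 0.377, 0.399 and 0.450 in Vector libraries, so the increase of Cebpd was not matched in Spidr. Over the 6 libraries Spidr had 102% as many counts as Cebpd, and how many of either lie in the shared stretch was not tested.

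Cebpb (ENSMUSG00000056501, chromosome 2, 167530835 to 167532338 in the table) encodes C/EBP beta, first known as the nuclear factor of the IL-6 promoter. It was by far the most abundant member. Counts were 7448, 8895 and 6217 in libraries labelled Ov_SNHG1 and 5255, 3544 and 5359 in Vector libraries. On the CPM scale it stood at 382, 422 and 322 against 250, 228 and 291. The groups did not overlap, but the gap between labelled replicate 3 and Vector replicate 3 was smaller than the range within either group. The log2 fold change was 0.55 ± 0.12 (SE), 1.46-fold with a 95% interval of 1.21 to 1.77, and it did not pass (edgeR, adjusted p = 0.0567). A larger log2 fold change was seen in 3.19% of tested genes. The gene passed in 3 of 15 alternatives. DESeq2 gave 0.55 (adjusted p = 0.000147) and called 4.42% of all tested genes. Removal of GC content and length trends gave 0.47 (edgeR adjusted p = 0.0149) and called 2.84%, and leaving out labelled replicate 3 gave 0.65 (edgeR adjusted p = 0.0416) and called 1.18%. The Cebpb transcript has 67.2% GC in GENCODE M21, against 51.6% for Cebpd and 43.3% for Cebpg.

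**Figure D2:**
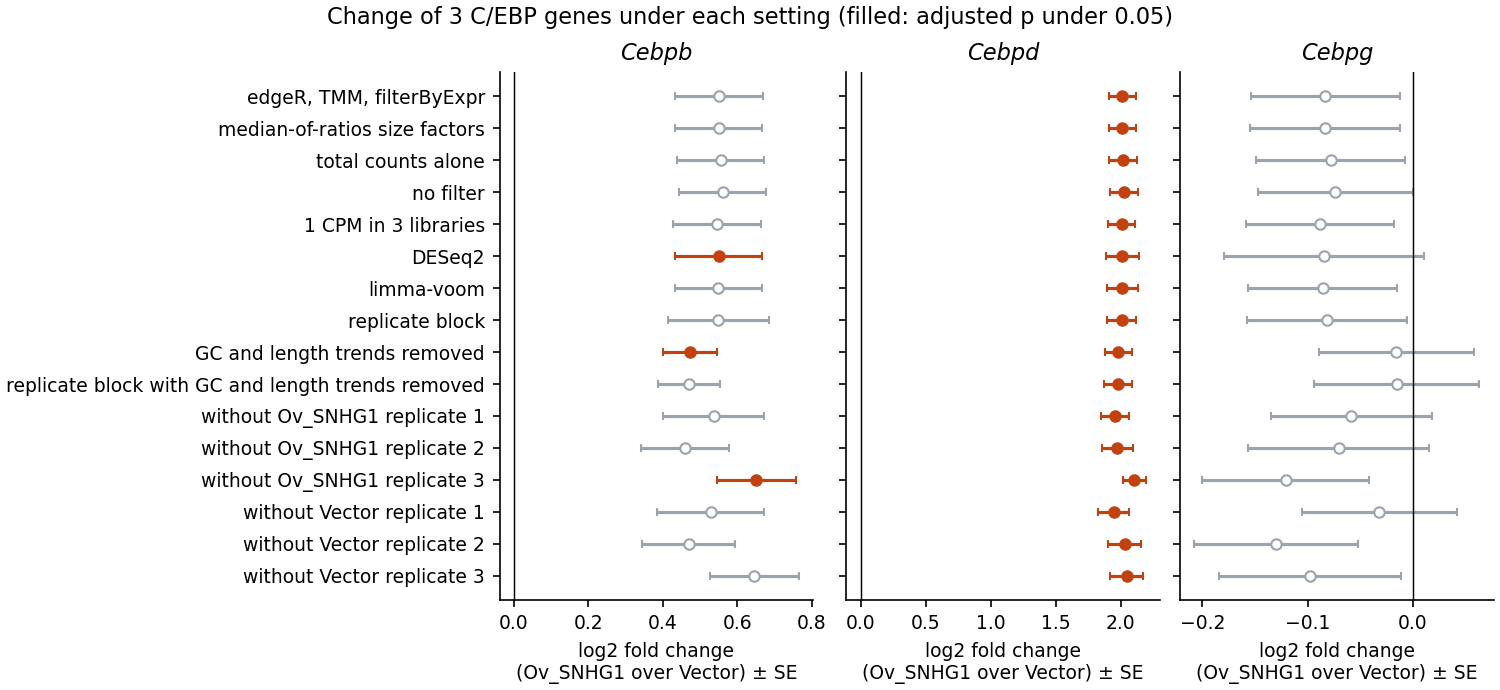
Log2 fold change of Cebpb, Cebpd and Cebpg (horizontal axes, Ov_SNHG1 over Vector, bars ± SE, each panel with its own range) under the reported fit, at the top, and 15 alternatives; filled points have an adjusted p under 0.05. Cebpd stays between 1.95 and 2.10 and filled throughout, Cebpb runs from 0.46 to 0.65 with 3 filled points, and Cebpg runs from -0.13 to -0.02 with none.

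The Cebpb row overlaps a neighbour as well. Peds1, which encodes the enzyme that makes the vinyl ether bond of plasmalogens, shares 908 bases with Cebpb in the table and lies on the opposite strand in GENCODE M21. Peds1 had 688, 840 and 621 counts in labelled libraries and 568, 369 and 524 counts in Vector libraries (log2 0.44 ± 0.10 SE, edgeR adjusted p = 0.0814; DESeq2 adjusted p = 0.0134). Each Peds1 count came with 10.8, 10.6 and 10.0 counts of Cebpb in labelled libraries, against 9.25, 9.60 and 10.2 in Vector libraries. All Peds1 counts together equal 9.83% of the Cebpb counts, and whether some of them are reads of Cebpb was not tested.

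Within 100 kb of the members, 9 genes that are not members were tested, Spidr and Peds1 among them. Of the 9, edgeR called 0, with 5 at an unadjusted p under 0.05, and DESeq2 called 1, Peds1. Of all tested genes, edgeR called 2.4% and DESeq2 4.42%. How many of all tested genes had an unadjusted p under 0.05 was not counted, so the 5 are a description. Beside Cebpb, the lncRNA A530013C23Rik, which starts 258 bases beyond the end of Cebpb, was at -0.64 ± 0.28 (log2, SE, edgeR adjusted p = 0.29), and Ube2v1, Gm11476 and Gm20431 were between -0.12 and 0.22. Beside Cebpd, the DNA repair kinase gene Prkdc was at -0.21 ± 0.07 and the microtubule nucleation gene Mzt2 at -0.10 ± 0.18. Pepd, a dipeptidase gene 1713 bases from Cebpg, was at 0.19 ± 0.06 (log2, SE). None of the non-overlapping neighbours came near the change of Cebpd.

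Cebpg (ENSMUSG00000056216, chromosome 7, 34745847 to 34755998 in the table), the gene of C/EBP gamma, had 1197, 1320 and 1297 counts in labelled libraries and 1524, 985 and 1227 counts in Vector libraries. On the CPM scale this was 61.4, 62.6 and 67.2 against 72.5, 63.5 and 66.5, and the groups overlapped. The log2 fold change was -0.08 ± 0.07 (SE; edgeR, adjusted p = 0.578), and its 95% interval corresponds to 0.843-fold to 1.06-fold. Inside its span lie Gm44836, Gm45094 and Gm45095, which had at most 12 counts in any library.

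Cebpa (ENSMUSG00000034957) lies 62719 bases from Cebpg on chromosome 7, at 34818718 to 34821353 in the table. It had 2, 0 and 0 counts in labelled libraries and 1, 0 and 1 in Vector libraries, too few for a test. Where no read was counted, as many as 3 counts remain possible, or 0.142 CPM in labelled replicate 2, 0.156 CPM in labelled replicate 3 and 0.193 CPM in Vector replicate 2. The granulocyte factor gene Cebpe, no member here, had 2 counts in Vector replicate 1 and 0 in the other libraries.

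Levels of different genes were compared per length, with the deposited FPKM (counts scaled by gene length and library total). In labelled libraries Cebpb averaged 250.03 ± 32.99 FPKM, Cebpd 14.7 ± 1.63, Cebpg 8.37 ± 0.424 and Cebpa 0.00714 ± 0.0124 (SD, n = 3). In Vector libraries Cebpb averaged 170.16 ± 20.99 FPKM, Cebpd 3.63 ± 0.272, Cebpg 8.83 ± 0.585 and Cebpa 0.00707 ± 0.00617 (SD, n = 3). Cebpd thus stood above Cebpg in labelled libraries and below it in Vector libraries, in each case without overlap.

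The FPKM values carry the authors' gene lengths. These came out at 1504 bases for Cebpb, equal to its span, but at 4176 for Cebpd, longer than its span of 3746. For Cebpg the length was 7632, against 5621 exon bases in GENCODE M21. With GENCODE M21 exon lengths, Cebpd was at 16.3 ± 1.85 in labelled libraries and 4.05 ± 0.296 in Vector libraries, and Cebpg at 11.3 ± 0.546 and 12.0 ± 0.818 (CPM per kilobase, SD, n = 3 each), so the order in each group was the same.

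Cebpb made up 90.9 to 92.2% of the summed FPKM of the 4 members in labelled libraries and 92.6 to 93.9% in Vector libraries. Cebpd made up 5.07 to 5.66% in labelled libraries and 1.86 to 2.29% in Vector libraries. The share of Cebpg was 2.70 to 3.74% in labelled libraries and 4.24 to 5.31% in Vector libraries. Cebpb FPKM exceeded Cebpd FPKM by 16.1, 18.2 and 16.8 times in labelled libraries and by 49.97, 40.49 and 50.61 times in Vector libraries, which do not overlap. The log2 ratio of Cebpd to Cebpb was -4.09 ± 0.0872 in labelled libraries and -5.55 ± 0.181 in Vector libraries (SD, n = 3 each), a difference of 1.46. The exact two-sided permutation p was 0.1, the smallest that 3 against 3 libraries allow.

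Promoter sequences for Cebpb and Cebpg are shown because C/EBP and ATF proteins are known to act on C/EBP genes themselves. They come from RefSeq on GRCm38.p6, cover 250 bases before and 50 after the annotated start, and were found for 3 of the 4 members. None was found for Cebpd, so the motifs below say nothing about the called member. The Cebpa window held no match to any of them and is not shown. Capitals mark matches, on either strand, to TGACG (the core of the ATF/CREB site), TTGCNNAA (C/EBP), CCAAT, and the NF-kappaB motif, GGG and TTTCC with any 2 bases between. Marked matches do not overlap in the sequences shown. The STAT motif TTCNNNGAA, found in 8.3% of promoters, was searched as well and had no match in them.
Cebpb, chr2:167688665-167688964, plus strand: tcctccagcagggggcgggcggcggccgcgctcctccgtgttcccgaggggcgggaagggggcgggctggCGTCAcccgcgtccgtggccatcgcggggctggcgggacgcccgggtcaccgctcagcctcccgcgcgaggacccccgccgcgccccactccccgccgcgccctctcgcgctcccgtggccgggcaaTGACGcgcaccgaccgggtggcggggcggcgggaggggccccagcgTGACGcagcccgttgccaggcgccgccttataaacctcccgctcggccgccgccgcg
Cebpg, chr7:35056517-35056816, minus strand: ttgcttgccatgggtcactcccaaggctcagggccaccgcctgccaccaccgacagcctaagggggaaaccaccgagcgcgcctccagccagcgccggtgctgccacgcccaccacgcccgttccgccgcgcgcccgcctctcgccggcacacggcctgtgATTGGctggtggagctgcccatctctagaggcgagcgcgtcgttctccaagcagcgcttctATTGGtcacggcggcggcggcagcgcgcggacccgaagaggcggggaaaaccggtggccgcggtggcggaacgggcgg
The Cebpb window held TGACG at 3 places, first bases at -180, -53 and -7 from the start, and none of the other marked motifs. TGACG or its complement was present in 20.8% of all 32851 RefSeq promoters of this length. The Cebpg window held CCAAT in the reverse direction at -89 and -28, a motif found in 37.4% of promoters. A match of letters is not a measured binding site.

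Genes whose values over the 6 libraries lay closest to each member were sought among 9918 genes with a mean of at least 200 counts, by the root mean square difference of log2 CPM after centring each gene on its own mean. Nearest to Cebpd was Zc3h12a, the gene of the RNase Regnase-1, at a difference of 0.0839, followed by Ccn5 (a matricellular CCN protein) at 0.0953 and Ripk2 (a kinase of NOD receptor signalling) at 0.125. All 3 rose, by 2.14 ± 0.09, 1.97 ± 0.08 and 1.92 ± 0.09 (log2, SE). Because nearness was measured on the same 6 libraries, a change close to the member's own follows from the choice, for each member. Zc3h12a had 124, 116 and 100.3 CPM in labelled libraries and 25.1, 25.7 and 26.2 CPM in Vector libraries, with labelled replicate 3 the lowest of its group as for Cebpd. Nearest to Cebpb were its overlapping neighbour Peds1 at 0.0780, the immediate early gene Ier5 at 0.0915 and the heat shock gene Hspa1b at 0.0978. Hspa1b has a near-identical copy, Hspa1a, so how reads were split between them is uncertain. Ier5 was called higher at 0.55 ± 0.08, and Hspa1b at 0.44 ± 0.11 was not (log2, SE, edgeR adjusted p = 0.0125 and 0.0893). The call of Ier5 was lost without Vector replicate 1 and without Vector replicate 2 (adjusted p = 0.0715 and 0.0678). Nearest to Cebpg were Hycc1, Ddx47 and Mettl14, at 0.0174 to 0.0274, none of them called.

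**Figure D3:**
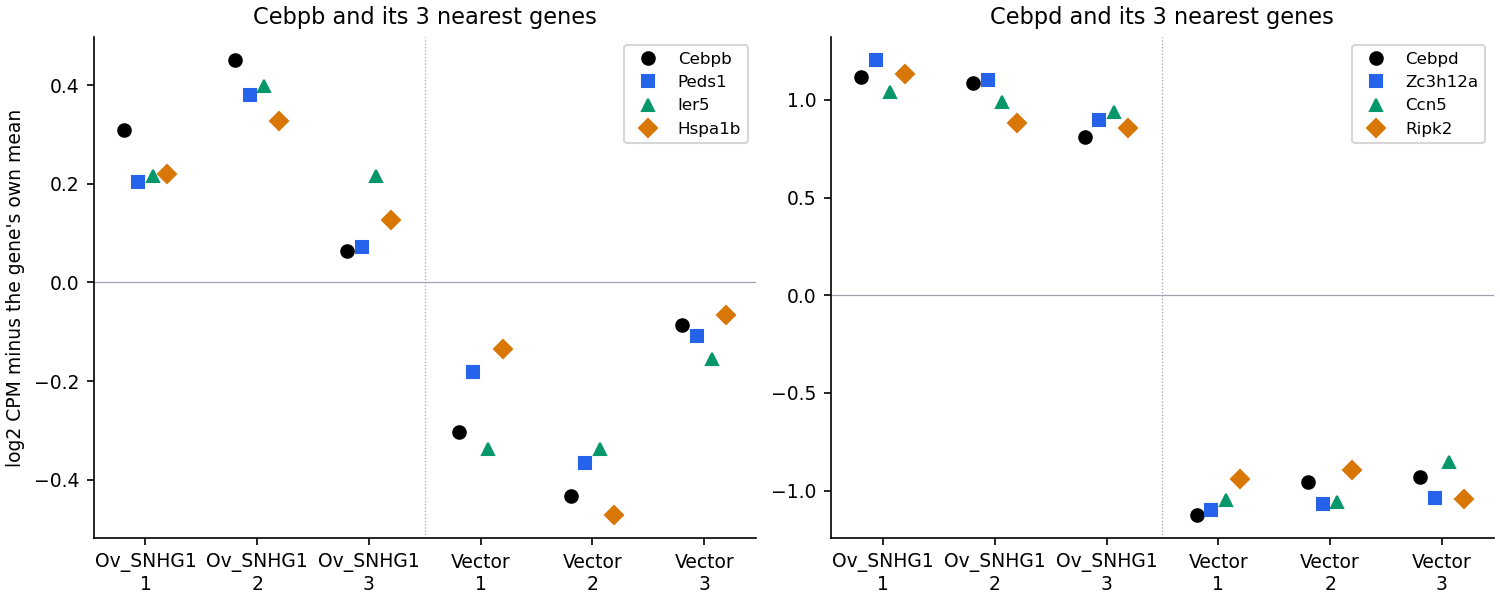
Log2 CPM minus each gene's own mean over the 6 libraries (vertical axis, a different range in each panel) for Cebpb and Cebpd, drawn as circles, and the 3 genes nearest to each; the horizontal axis gives the library and its replicate. In the left panel labelled replicate 3 and Vector replicate 3 lie closest to 0 for Cebpb and Peds1, and in the right panel all 4 genes have labelled libraries above 0 and Vector libraries below 0. The genes were chosen for nearness on these same libraries, so a shared pattern follows from the choice.

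Other genes named for C/EBP did not pass. Ddit3, which encodes the C/EBP homologous protein CHOP of the stress response, had 530, 588 and 531 counts in labelled libraries and 588, 450 and 509 counts in Vector libraries (log2 -0.03 ± 0.07 SE). Cebpz, whose product shares the name but is not a leucine zipper factor, was at 78.2 ± 4.48 CPM in labelled libraries and 81.7 ± 4.85 CPM in Vector libraries (SD, n = 3). Neither passed (edgeR, adjusted p = 0.831 and 0.677).

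Among leucine zipper partners and competitors, 2 of 15 tested genes were called higher and none lower, with a median log2 fold change of 0.15, against 0.01 for all tested genes. Of all tested genes, 1.54% were called higher and 0.856% lower. This list and those below were chosen with earlier results of these data known, so their counts and medians are a description. Nfil3, a repressor related to the C/EBP family, rose by 0.65 ± 0.13 and Fosl1, the AP-1 subunit FRA-1, by 0.55 ± 0.11 (log2, SE, edgeR adjusted p = 0.0394 and 0.0423). Nfil3 had 24.2, 18.2 and 19.5 CPM in labelled libraries and 12.4, 13.9 and 13.2 CPM in Vector libraries. Both calls were held without labelled replicate 1 and lost without any other single library, at adjusted p of 0.055 to 0.146 for Nfil3 and 0.0798 to 0.155 for Fosl1. Nfil3 and Fosl1 were each called in 6 of all 15 alternatives. Atf4, the stress factor that pairs with C/EBP gamma, had 227, 242 and 242 CPM in labelled libraries and 167, 234 and 176 CPM in Vector libraries. It did not pass (log2 0.30 ± 0.12 SE, edgeR adjusted p = 0.259), but passed at 0.46 without Vector replicate 2 (adjusted p = 0.0337), the Vector library that overlaps the labelled ones.

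Another list holds genes that induce Cebpb and Cebpd or act beside their products. Of its 18 tested genes 6 were called higher, against 1.54% of all tested genes, and none lower, against 0.856%, with a median of 0.28. The 3 largest were Nfkbiz, the NF-kappaB cofactor that works with C/EBP factors on IL-17 targets, at 2.28 ± 0.15, the oncostatin M receptor gene Osmr at 1.62 ± 0.09 and the NF-kappaB subunit gene Nfkb1 at 1.12 ± 0.06 (log2, SE). Nfkbiz had 183, 116 and 152 CPM in labelled libraries and 32.2, 31.3 and 29.7 CPM in Vector libraries. Socs3, a feedback inhibitor of cytokine receptors, Traf3ip2, the gene of the IL-17 receptor adaptor Act1, and Stat3, a direct activator of Cebpd in mouse cells, rose by 1.03 ± 0.11, 0.55 ± 0.07 and 0.55 ± 0.06. All 6 were called in each of the 15 alternatives. Nr3c1, the glucocorticoid receptor gene, had 221, 129 and 130 CPM in labelled libraries and 236, 244 and 228 CPM in Vector libraries, with labelled replicate 1 far above the others of its group. It did not pass (log2 -0.56 ± 0.19 SE, edgeR adjusted p = 0.2), but passed at -0.87 without that library (adjusted p = 0.00048), a fit that called 5.42% of its tested genes.

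Genes that set the level, activity or translation of C/EBP proteins mostly did not pass. Of 23 tested genes 2 were called higher, against 1.54% of all tested genes, and none lower, against 0.856%, with a median of -0.01. Trib1, a pseudokinase that brings C/EBP alpha to the ubiquitin ligase COP1, rose by 0.60 ± 0.06 (log2, SE, edgeR adjusted p = 0.00282), at 121, 113 and 106 CPM in labelled libraries and 75.7, 74.0 and 74.2 CPM in Vector libraries. Zc3h12a, already named as nearest to Cebpd, rose by 2.14 ± 0.09, and its product cuts mRNAs rather than acting on C/EBP proteins. The ligase gene Cop1 was at 42.5 ± 4.51 CPM in labelled libraries and 43.4 ± 3.39 CPM in Vector libraries (SD, n = 3; edgeR, adjusted p = 0.892). The 21 tested genes that did not pass had log2 fold changes of -0.21 to 0.21.

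Of the lists, that of known inflammatory targets of C/EBP beta and delta held the largest changes. The list has 32 genes, of which 8 had no count at all and 15 were tested. Of these 15, 10 were called higher, against 1.54% of all tested genes, and none lower, against 0.856%, with a median of 2.00. The list was chosen with earlier results of these data known, so its count and median are a description. Most of the tested targets are also known NF-kappaB targets. Lcn2 and Saa3, both in that count, passed the filter only through the labelled libraries. Which factor acted on them was not tested. The acute-phase gene Saa3 had 230, 230 and 256 counts in labelled libraries and 2, 0 and 3 counts in Vector libraries, and the siderophore-binding lipocalin gene Lcn2 had 50, 77 and 41 counts, against 4, 0 and 0 in Vector libraries. The inducible nitric oxide synthase gene Nos2 stood at 211, 150.3 and 135 CPM in labelled libraries and 2.19, 1.29 and 2.28 CPM in Vector libraries. Complement C3 stood at 812, 585 and 597 CPM in labelled libraries and 29.3, 30.9 and 32.6 CPM in Vector libraries. Their log2 fold changes were 6.95 ± 0.34 for Saa3, 6.40 ± 0.25 for Nos2, 5.15 ± 0.64 for Lcn2 and 4.43 ± 0.14 for C3 (SE). The size for Lcn2 rests on Vector replicate 1: it was 8.71 without that library, where the remaining Vector libraries have no count and the fitted value is no bound, and 4.602 to 5.312 without any other single library. For Saa3 it was 7.61 without Vector replicate 3 and 6.49 to 7.01 without any other single library.

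Il6, the cytokine gene whose promoter named C/EBP beta, had 48, 51 and 65 counts in labelled libraries and 39, 21 and 15 counts in Vector libraries. It did not pass (log2 1.02 ± 0.30 SE, edgeR adjusted p = 0.145). Ptgs2, the gene of cyclooxygenase 2, was at -0.11 ± 0.05 (log2, SE, edgeR adjusted p = 0.328). Cd14, a listed target and also a macrophage marker, rose by 0.76 ± 0.10 (log2, SE, edgeR adjusted p = 0.00729), a call lost with the replicate block and GC and length trends removed together (adjusted p = 0.0535). The 10 macrophage and monocyte markers together summed to 42.0 to 48.1 CPM in labelled libraries and 33.7 to 34.5 CPM in Vector libraries. Of the 10, 1 was called higher, Cd14, at a mean of 24.3 CPM against 14.4 CPM in Vector libraries, and Tyrobp had no count. Lyz2 averaged 15.3 CPM in each group (log2 -0.003 ± 0.10 SE). Without a call, Cd68 was higher with no overlap (3.83 against 2.47 CPM). Csf1r (1.04 against 1.43 CPM) and Adgre1 (0.168 against 0.336 CPM, too low to test) were lower with no overlap. The 8 neutrophil markers summed to at most 0.38 CPM in any library, and Ly6g had no count. The part of such cells in these results was not tested.

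The promoters of 4 of these targets are shown because each holds the C/EBP motif TTGCNNAA, with capitals as before.
C3, chr17:57228087-57228386, minus strand: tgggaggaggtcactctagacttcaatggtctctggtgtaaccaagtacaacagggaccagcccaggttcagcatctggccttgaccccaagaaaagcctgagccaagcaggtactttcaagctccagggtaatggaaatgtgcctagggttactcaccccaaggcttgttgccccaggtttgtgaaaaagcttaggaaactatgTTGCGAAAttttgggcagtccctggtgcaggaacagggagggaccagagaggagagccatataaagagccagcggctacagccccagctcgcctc
Saa3, chr7:46715627-46715926, minus strand: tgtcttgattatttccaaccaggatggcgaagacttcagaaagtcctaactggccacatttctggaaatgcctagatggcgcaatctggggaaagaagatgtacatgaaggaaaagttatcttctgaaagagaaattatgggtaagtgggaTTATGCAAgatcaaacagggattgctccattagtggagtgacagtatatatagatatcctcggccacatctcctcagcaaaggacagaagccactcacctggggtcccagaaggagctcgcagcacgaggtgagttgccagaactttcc
Lcn2, chr2:32387690-32387989, minus strand: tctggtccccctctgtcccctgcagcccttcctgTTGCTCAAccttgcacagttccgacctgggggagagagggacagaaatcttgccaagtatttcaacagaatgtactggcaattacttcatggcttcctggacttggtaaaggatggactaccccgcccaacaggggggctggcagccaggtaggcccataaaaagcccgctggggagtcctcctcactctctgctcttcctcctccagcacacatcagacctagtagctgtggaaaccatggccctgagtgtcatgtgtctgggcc
Il6, chr5:30012864-30013163, plus strand: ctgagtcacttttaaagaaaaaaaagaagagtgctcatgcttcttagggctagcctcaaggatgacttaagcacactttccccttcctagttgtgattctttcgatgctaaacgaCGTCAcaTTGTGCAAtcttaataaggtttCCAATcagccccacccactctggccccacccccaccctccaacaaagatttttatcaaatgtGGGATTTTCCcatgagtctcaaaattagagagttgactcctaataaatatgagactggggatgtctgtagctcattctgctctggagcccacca
The match started at -45 in C3, -99 in Saa3, -216 in Lcn2 and -128 in Il6. Of the 15 tested targets 7 had a promoter in the RefSeq table, and 5 of the 7 held the motif, as did 10.8% of all promoters. The fifth was Ptgs2. The targets were listed because C/EBP factors are known to act on them, so that share is a description and not a result. The NF-kappaB motif, present in 1.63% of promoters, was found in 2 of the 7, Il6 and Cxcl1. It started at -44 in Il6, and at -89 and -71 in the chemokine gene Cxcl1, which was called higher at 3.75 (log2) and held no match to the C/EBP motif. Il6 and Ptgs2 carry the C/EBP motif without having passed the test.

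Tested targets of ATF4 and C/EBP gamma numbered 29, in a list that includes Cebpg itself. Of these, 2 were called higher, against 1.54% of all tested genes, and none lower, against 0.856%, with a median of 0.13. Log2 fold changes were above 0 for 24 of the 29, where the median of all tested genes was 0.01, and 8 had an unadjusted p under 0.05. The shares of all tested genes above 0 and under that p were not counted, so neither the 24 nor the 8 can be set against them. The cystine transporter gene Slc7a11 rose by 0.67 ± 0.11 and the mitochondrial serine enzyme gene Shmt2 by 0.43 ± 0.09 (log2, SE, edgeR adjusted p = 0.0202 and 0.0493). The call of each was held without labelled replicate 1 and lost without any other single library, at adjusted p of 0.0722 to 0.0862 for Slc7a11 and 0.0944 to 0.188 for Shmt2. Among the other alternatives, Slc7a11 was lost only with the replicate block, without and with GC and length trends removed (edgeR adjusted p = 0.0777 and 0.0691). Shmt2 was held there only with total counts alone (edgeR adjusted p = 0.0461) and DESeq2 (adjusted p = 0.00157). The other 27 had log2 fold changes of -0.29 to 0.48.

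Adipogenic and myeloid targets of C/EBP alpha were mostly undetected or too low to test. Of 22 listed genes 7 had no count in any library and 6 were tested, with a median of -0.18. Lipoprotein lipase, Lpl, was lower, at 135, 146 and 155 CPM in labelled libraries and 193, 188 and 174 CPM in Vector libraries (log2 -0.35 ± 0.07 SE, edgeR adjusted p = 0.0465). That call was held without labelled replicate 1 and lost without any other single library (adjusted p = 0.067 to 0.161). It was also lost with total counts alone, without a filter, with the replicate block and with GC and length trends removed (edgeR adjusted p = 0.0506 to 0.216). The call of Lpl was held in the other alternatives. The adipogenic regulator Pparg had 3, 5 and 3 counts in labelled libraries and 2, 1 and 2 counts in Vector libraries, and Adipoq and Plin1, adipocyte markers, had none in any library.

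**Figure D4:**
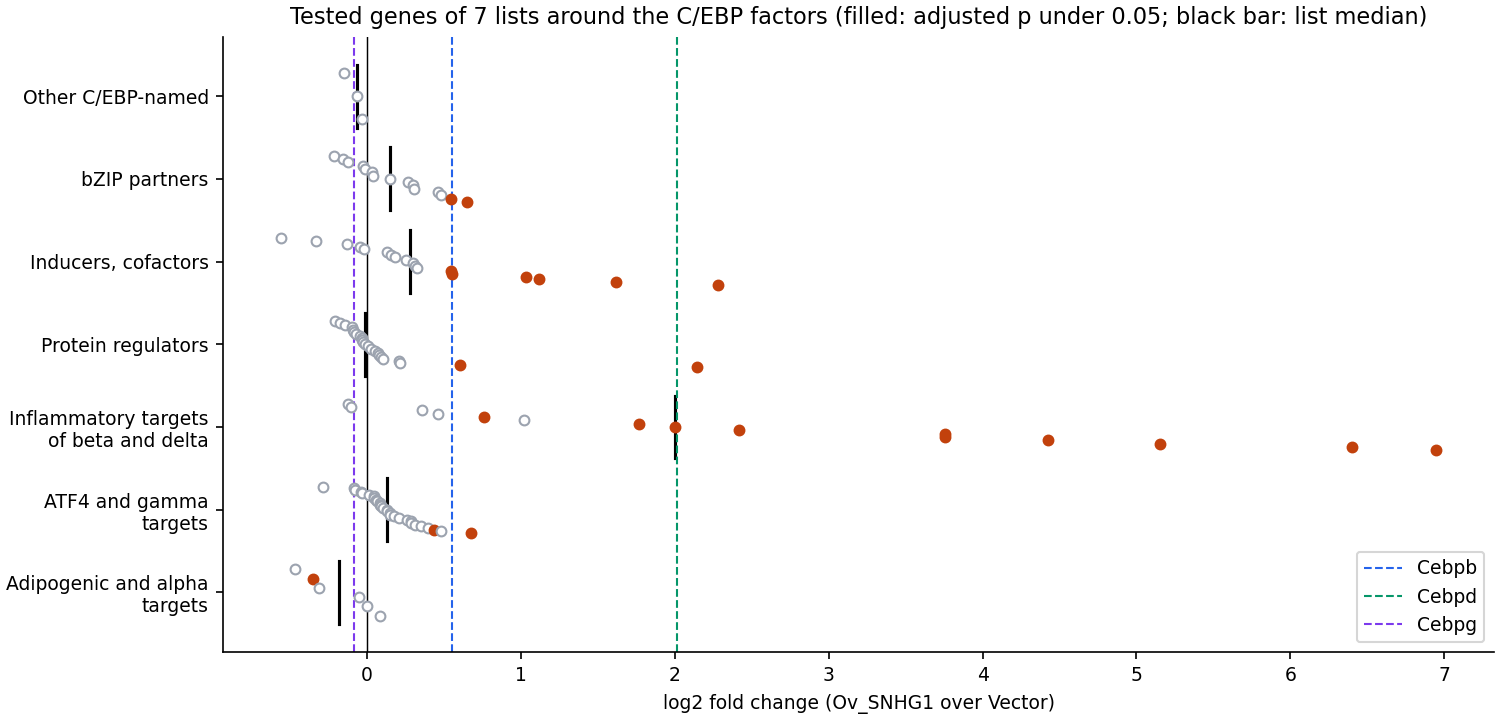
Log2 fold change (horizontal axis, Ov_SNHG1 over Vector) of each tested gene in 7 lists, filled where the edgeR adjusted p is under 0.05, with the list median as a black bar and the values of Cebpb, Cebpd and Cebpg as dashed lines. The tested inflammatory targets run from -0.12 to 6.95 with a median of 2.00, and 17 of the 32 listed are not drawn because they were not tested; the ATF4 and gamma targets have their median at 0.13 and the adipogenic and alpha targets at -0.18.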

How the data were processed

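RNA was measured by poly(A)-selected, stranded paired-end sequencing in 3 libraries labelled Ov_SNHG1 and 3 Vector libraries, grouped by title. The authors deposited 1 table with whole-number counts and FPKM values per gene and library; HISAT2, SAMtools 1.3.1 and StringTie were used per the submitters' processing notes, which name the human build GRCh38, although all 57180 rows carry mouse identifiers. The sources used here do not give how counts and gene lengths were made. No column was left unused. Rows without a symbol (525) held 0.177 to 0.21% of counts.

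Counts were tested with the quasi-likelihood test of edgeR 4.0.16 in R 4.3.3 (TMM, filterByExpr, group as the only term), with Benjamini-Hochberg adjustment over all 14605 tested genes at 0.05, which called 350, or 2.4%. CPM is TMM-scaled. A count of 0 allows up to 3 counts, and such floors cover counting error only. The fit was tested on simulated counts, where it called 78.8% of 2-fold changes, 54.5% of 1.5-fold changes and 0.0562% of unchanged genes. Alternatives were other scalings and filters, DESeq2 1.42.0, limma-voom (limma 3.58.1), a replicate block, removal of GC and length trends, and leaving out each library. The GC content and length of transcripts came from GENCODE M21, matched by identifier for 51884 rows. The C/EBP genes, the lists, the tests and the motifs were chosen with earlier results of these data known. Named genes were the members, Cebpe, Ddit3, Cebpz, Snhg1, tested genes within 100 kb, up to 3 called list members per direction, 9 fixed genes (Lcn2, Saa3, C3, Il6, Nos2, Nfkbiz, Atf4, Trib1, Cop1) and the 3 genes nearest each tested member; Socs3, Stat3, Traf3ip2, Nr3c1, Ptgs2, Cd14, Cxcl1, Pparg, Adipoq, Plin1 and single marker genes were named after their values were seen.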

Additional observations from a re-analysis of the deposited data

How the results depend on the processing

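Cebpd passed in all 15 alternatives, with log2 fold changes of 1.95 to 2.10, and Cebpg in none, at -0.13 to -0.02. Cebpb kept its direction and passed in 3: with DESeq2 at 0.55, with GC and length trends removed at 0.47 and without Ov_SNHG1 replicate 3 at 0.65. Leaving out 1 library at a time gave 0.46 to 0.65 for Cebpb, and adjusted p over all alternatives ran from 0.000147 to 0.195. Cebpa had 4 counts in all and was tested only without a filter, and is not reported from there. Genes past the threshold numbered 350, against 646 with DESeq2, 163 with the replicate block, 158 with the replicate block with GC and length trends removed, and 123 to 807 with 1 library left out (807 without Ov_SNHG1 replicate 1). The causes were not tested. Of 106 list genes other than the members 23 were called, against 2.4% of all tested genes. The number was 17 to 30 in the alternatives, with 30 from DESeq2, which called 4.42% of all tested genes. The lists were chosen with earlier results of these data known. The labels state no pairing by replicate number. Deviations from group means correlated at -0.0305, -0.0712 and -0.146 between same-numbered libraries over 9918 genes, and no library correlated best with its own number. Deviations centred within 3 libraries cannot decide whether libraries share a culture or batch, which was not tested. With the replicate block Cebpb was at 0.55 (adjusted p = 0.156), Cebpd at 2.01 (adjusted p = 0.000836) and Cebpg at -0.08 (adjusted p = 0.634). The difference in log2 Cebpd to Cebpb ratio was 1.40 to 1.56 without single libraries, where no p under 0.2 is possible. Depth limits genes of few counts, such as Cebpa, Cebpe, the genes inside Cebpg and many marker and target genes, which could not be tested.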
